A study of Sus scrofa with 60 samples.

Results

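The genes of the circadian clock were examined in liver of neonatal pigs, as 10 genes found by their symbol among 30335 named features of the count table. They are 3 activators (ARNTL, CLOCK, and NPAS2), 6 repressors (PER1, PER2, CRY1, CRY2, NR1D1, and BHLHE40), and 1 output factor (DBP). Every one of the 10 passed the filter on low counts, as did 16210 genes in all.

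The cell-autonomous clock is a feedback loop of transcription. ARNTL (also called BMAL1) pairs with CLOCK or NPAS2 and switches on the period and cryptochrome genes, whose proteins then block the pair, while NR1D1 (REV-ERBα) represses ARNTL and BHLHE40 (DEC1) competes for the same promoter elements. DBP is driven directly by the loop and passes its rhythm to target genes, and in liver the phase of the loop is known to follow the time of feeding.

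Liver mRNA was sequenced from 60 pigs at day 14 after delivery. Pigs of either sex, born by cesarean section shortly before term to sows of mixed Landrace and Hampshire breed, had sham surgery or ligation of the bile duct (BDL), which stops bile flow, right after delivery. All carried a jugular catheter and received parenteral nutrition (PN) for the first day. ENT pigs were then taken off PN gradually and moved to a milk replacer formula by orogastric tube. They were on full formula feeds only from about the middle of the study, and received some PN until then. SLE pigs stayed on PN with a soy lipid emulsion (Intralipid), and MLE pigs on PN with a mixed lipid emulsion (SMOFlipid). With sham surgery there were 12 ENT, 10 SLE, and 9 MLE pigs, and with BDL 10, 11, and 8. The labels and methods do not give the hour of tissue collection, and its part in any difference below was not tested.

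A library held 14469788 to 21374161 counted reads. The 12 hepatocyte markers checked were present in every library, with albumin (ALB) at 20386 CPM or more. Of 1770 pairs of libraries, the closest by far were ENT-sham replicate 2 with ENT-BDL replicate 1, whose chi-square over 17232 genes was 1.87 per degree of freedom, while the next pair had 15.04. The library labelled ENT-sham replicate 2 also had the highest summed cholangiocyte markers of its group, at 673 CPM against a group median of 155 CPM, so the members called in comparisons with ENT are also given without both. The titles also give every pig a number, 1 of 8, that the sources used here do not explain, and MLE pigs carry only 4 of them. It is called the identifier number below and was used as a block in an alternative model. In whole liver, fewer cells of a type and less RNA per cell cannot be told apart.

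Expression is given as CPM, counts scaled to the size of the library, on TMM-scaled libraries. All 60 pigs entered 1 quasi-likelihood model in edgeR, and a gene was called at a Benjamini-Hochberg adjusted p under 0.05 over the 16210 genes tested. Log2 fold changes are followed by their standard error (SE). Comparisons that use the same group share its pigs and are not independent of each other.

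Between genes, levels were set side by side per kilobase of the gene length in the table. The order depends on that length, which is 17277 bases for CRY1 and at most 7627 for the other members. By CPM alone CRY1, at 46.5, was second to PER1, at 78.0. The highest were BHLHE40 at 13.6 CPM per kb and PER1 at 12.8, followed by ARNTL at 7.78, CRY2 at 4.38, DBP at 2.73, CRY1 at 2.69, and PER2 at 2.49. CLOCK at 1.65, NPAS2 at 0.642, and NR1D1 at 0.415 CPM per kb were lowest, so the activator partners of ARNTL stood well under ARNTL itself. NR1D1 and NPAS2 had as few as 12 counts in a library, DBP 16, and PER2 30, whereas the other members had at least 102. On Sscrofa11.1 the members lie on 8 chromosomes, with ARNTL (chr2:45895637-46025174) and CRY2 (chr2:16587101-16620380) both on chromosome 2, and PER1 (chr12:53361863-53376723) and NR1D1 (chr12:22263549-22274131) both on chromosome 12. The others are CLOCK (chr8:54793323-54910192), NPAS2 (chr3:53298805-53490375), PER2 (chr15:137793419-137837854), CRY1 (chr5:13275265-13429566), BHLHE40 (chr13:61526121-61533686), and DBP (chr6:53986955-53993044), each annotated as protein-coding.

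**Figure D1:**
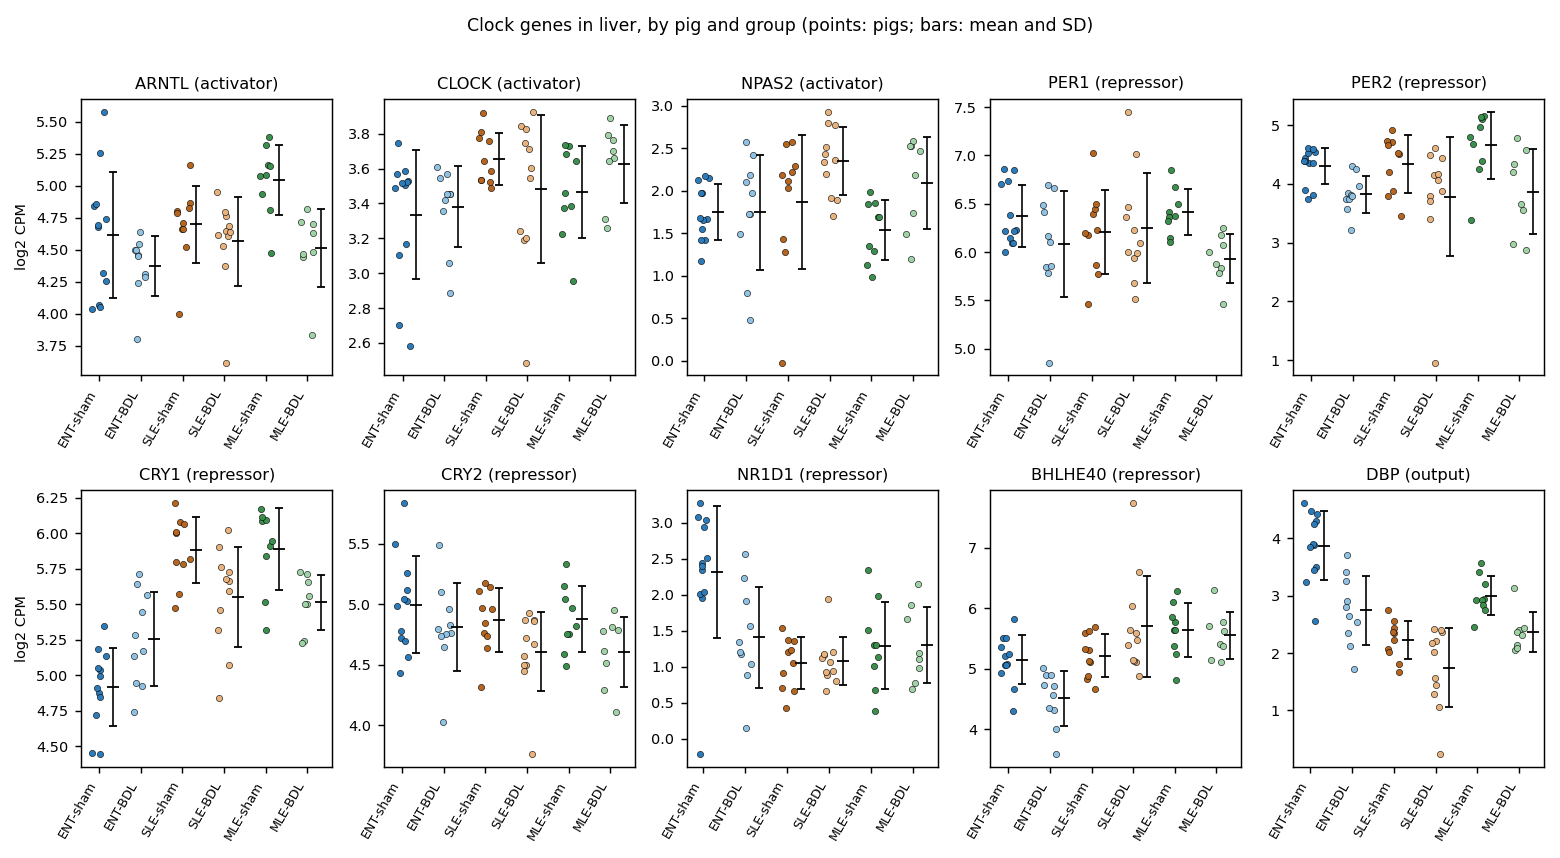
Log2 CPM of each of the 10 members (vertical axes) in each pig of the 6 groups (horizontal axes). Points are pigs and bars are the group mean and SD; DBP and NR1D1 are highest and CRY1 lowest in ENT-sham pigs, and BHLHE40 is lowest in ENT-BDL pigs.

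The first question was whether the clock genes differed between parenteral and enteral feeding. DBP and NR1D1 were lower and CRY1 and BHLHE40 higher in the 38 PN pigs than in the 22 ENT pigs, with a smaller rise of CLOCK. These 5 of 10 members were called in a comparison that called 41.6% of all genes tested. The other members, ARNTL, NPAS2, PER1, PER2, and CRY2, had log2 fold changes of -0.19 to 0.22 that did not pass. ARNTL (0.19, adjusted p = 0.080) passed without any of 4 single libraries, ENT-sham replicates 7 or 9, SLE-BDL replicate 9, or MLE-BDL replicate 2 (0.20 to 0.24), and CRY2 (-0.19, adjusted p = 0.071) without any of 6, ENT-sham replicates 5, 8, 11, or 12, ENT-BDL replicate 4, or MLE-sham replicate 7 (-0.23 to -0.20).

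DBP, a PAR bZIP transcription factor, showed the largest difference. It ranged from 5.80 to 24.4 CPM in ENT-sham pigs (median 14.7) and from 3.19 to 12.9 CPM in ENT-BDL pigs (median 6.52). On PN it ranged from 3.07 to 6.59 CPM in SLE-sham (median 4.76), 1.07 to 5.23 CPM in SLE-BDL (median 3.96), 5.35 to 11.8 CPM in MLE-sham (median 7.49), and 4.01 to 8.71 CPM in MLE-BDL (median 4.96). The groups overlapped, but 1 of the 38 PN pigs lay above the ENT median. Averaged over surgery and lipid, DBP was 0.487-fold on PN (log2 -1.04, SE 0.13, adjusted p = 2.4e-09) and log2 -0.99 without both matching ENT libraries. Without both, NR1D1 (-0.73), CRY1 (0.60), BHLHE40 (0.76), and CLOCK (0.20), described next, also kept their calls.

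NR1D1, the nuclear receptor that represses ARNTL, was expressed at low levels throughout. ENT-sham pigs ranged from 0.749 to 9.55 CPM (median 5.24) and ENT-BDL pigs from 0.991 to 5.80 CPM (median 2.31). The SLE-sham pigs lay between 1.23 and 2.79 CPM (median 2.08), SLE-BDL between 1.47 and 3.71 CPM (median 1.97), MLE-sham between 1.19 and 4.94 CPM (median 2.34), and MLE-BDL between 1.51 and 4.30 CPM (median 2.10). Only the ENT-sham median stood apart, and the lowest value of all 60 pigs was also in that group, in replicate 7. The averaged fold on PN was 0.569 (log2 -0.81, SE 0.16, adjusted p = 2.3e-05), with 2 of 38 PN pigs above the ENT median.

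CRY1, a cryptochrome that inhibits the ARNTL dimer, differed in the opposite direction. It ranged from 21.7 to 40.6 CPM in ENT-sham (median 30.8) and from 26.6 to 52.4 CPM in ENT-BDL (median 37.4). The PN groups spanned 44.3 to 74.0 CPM in SLE-sham (median 60.1), 28.6 to 64.7 in SLE-BDL (median 50.5), 39.8 to 71.7 in MLE-sham (median 61.6), and 37.4 to 52.9 in MLE-BDL (median 46.1). All but 1 of the 38 PN pigs exceeded the ENT median, and CRY1 was 1.53-fold on PN (log2 0.62, SE 0.08, adjusted p = 1.4e-09).

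BHLHE40, a basic helix-loop-helix repressor that also answers to many stimuli outside the clock, ranged from 19.6 to 56.4 CPM in ENT-sham (median 35.4) and from 11.96 to 32.4 CPM in ENT-BDL (median 24.9). PN pigs ranged from 25.3 to 51.5 CPM in SLE-sham (median 37.3), 29.2 to 214 in SLE-BDL (median 44.2), 28.1 to 78.0 in MLE-sham (median 49.8), and 34.7 to 78.8 in MLE-BDL (median 46.0). Sham groups overlapped widely, and the ENT-BDL group had the lowest median, the lowest pig, and the lowest maximum of the 6. The averaged fold on PN was 1.68 (log2 0.75, SE 0.15, adjusted p = 3.9e-05).

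CLOCK, the histone acetyltransferase partner of ARNTL, was 1.15-fold on PN (log2 0.20, SE 0.08, adjusted p = 0.036). Its group medians lay between 10.8 and 12.7 CPM and all groups overlapped. The call was the weakest of the 5. It was lost without any of 13 single libraries, namely ENT-sham replicates 1, 4, 6, or 10, ENT-BDL replicates 7 or 8, SLE-sham replicate 8, SLE-BDL replicates 5 or 10, and MLE-sham replicates 3, 4, 6, or 8 (adjusted p 0.052 to 0.071, log2 0.17 to 0.19), and with the identifier number as a block (log2 0.14, adjusted p = 0.26).

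**Figure D2:**
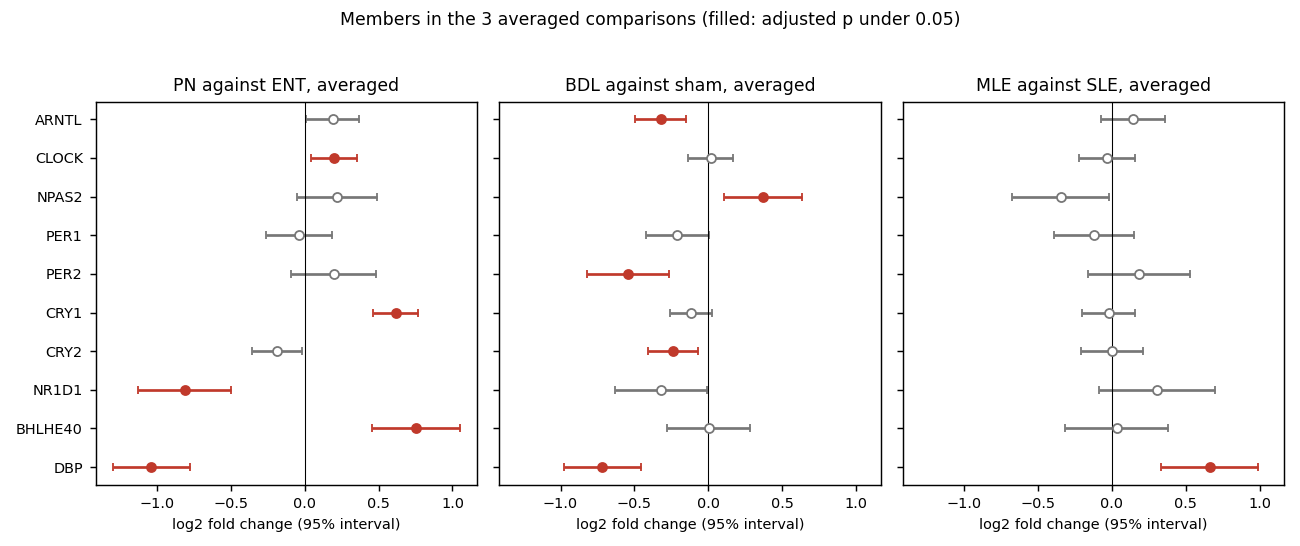
Log2 fold change of each member with its 95% interval (horizontal axis) for PN against ENT, BDL against sham, and MLE against SLE, each averaged over the other factor. Filled red points passed an adjusted p of 0.05, as did 5, 5, and 1 of the 10 members, and DBP is the only one of them filled in all 3 panels.

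The 6 identifier numbers that hold both ENT and PN pigs allowed a comparison inside each number, with surgeries and lipids pooled rather than averaged. The ENT pigs of a number were from 1, which had BDL, to 8. In the number with 8, ENT pigs had either surgery, whereas its 5 PN pigs were all SLE-BDL. Surgery and diet are therefore mixed in these differences. CRY1 was higher on PN in 6 of 6 (log2 difference 0.47 to 1.05), and DBP and NR1D1 were lower in 6 of 6 (-1.61 to -0.82 and -1.22 to -0.47). BHLHE40 was higher in 5 of 6 (-0.24 to 1.14). When the model was blocked on this number, DBP (-1.10), NR1D1 (-0.84), CRY1 (0.76), and BHLHE40 (0.50, adjusted p = 0.025) remained called, and ARNTL was called as well (0.29, adjusted p = 0.0066).

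Other lists of genes were counted in the same comparison, to be read against the 41.6% of all genes called in it. Of 13 immediate early genes tested, 8 were higher and 2 lower on PN, and the summed level ranged from 88.0 to 405 CPM in ENT and from 162 to 1005 CPM in PN pigs. Among 13 genes of feeding and fasting, 1 was higher and 6 were lower (2592 to 6890 CPM in ENT and 1674 to 5048 CPM in PN), and among 12 glucocorticoid-responsive genes 4 were higher and 2 lower (2756 to 4520 and 1740 to 8004 CPM). Hypoxia-response genes were higher for 6 of 13 and lower for 1 (383 to 560 and 480 to 1015 CPM). For the cell types, 5 of 10 macrophage markers (1444 to 3069 and 1356 to 2959 CPM) and 5 of 7 erythroid markers (345 to 3897 and 128 to 1411 CPM) were lower on PN. Hepatocyte markers were split, with 2 higher and 3 lower of 12 (100270 to 199060 and 114050 to 232070 CPM), and so were cholangiocyte markers, with 3 and 3 of 10 (95.5 to 673 and 211 to 543 CPM). Of the stellate cell and myofibroblast markers 1 was higher and 1 lower of 10 (1253 to 4175 and 1260 to 8183 CPM), and 3 of 9 endothelial (756 to 1836 and 430 to 1492 CPM), 1 of 8 lymphocyte, and 1 of 10 proliferation markers were lower. Among ENT pigs, the lowest hepatocyte and macrophage sums and the highest cholangiocyte sum were those of ENT-sham replicate 2. The highest hypoxia-response sum and the highest stellate cell and myofibroblast sum were those of ENT-BDL replicate 1, its matching library. No marker of any list was at 0 in every library, and the part of these lists in the clock differences was not tested.

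Among sham pigs, SLE differed from ENT in 3 of 10 members, where 27.5% of all genes were called. DBP was 0.300-fold (log2 -1.74, SE 0.22, adjusted p = 8.8e-09), NR1D1 0.362-fold (log2 -1.46, SE 0.26, adjusted p = 1.2e-05), and CRY1 1.95-fold (log2 0.96, SE 0.12, adjusted p = 4.5e-09). CRY1 was the member whose groups did not overlap, from 44.3 CPM up in SLE-sham and from 40.6 CPM down in ENT-sham, as held for 1.69% of all genes. MLE differed from ENT in the same 3 members, where 21.1% of genes were called. There DBP was 0.519-fold (log2 -0.95, SE 0.22, adjusted p = 0.00096), NR1D1 0.456-fold (log2 -1.13, SE 0.26, adjusted p = 0.0011), and CRY1 1.97-fold (log2 0.98, SE 0.12, adjusted p = 1.3e-08). Both comparisons share the 12 ENT-sham pigs. Without both matching libraries all 6 of these calls were kept, at log2 values of -1.78, -1.48, and 0.96 for SLE and -0.99, -1.14, and 0.97 for MLE in the same order of genes. With the identifier number as a block ARNTL (log2 0.63, adjusted p = 0.00087) and PER2 (log2 0.66, adjusted p = 0.046) were also called between MLE-sham and ENT-sham. ARNTL was called there without any of 7 single libraries too, which were ENT-sham replicates 7 or 9, MLE-sham replicates 2 or 7, SLE-sham replicate 6, SLE-BDL replicate 9, and MLE-BDL replicate 2 (log2 0.37 to 0.49), and BHLHE40 without SLE-BDL replicate 9 (log2 0.49, adjusted p = 0.044). CLOCK (log2 0.29, SE 0.12, adjusted p = 0.069) was called between SLE-sham and ENT-sham without SLE-BDL replicate 1 or ENT-sham replicate 7 (log2 0.29 to 0.33).

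Among BDL pigs the members called were different in part. BHLHE40 was 2.66-fold in SLE-BDL against ENT-BDL (log2 1.41, SE 0.24, adjusted p = 1.6e-05) and 2.05-fold in MLE-BDL (log2 1.04, SE 0.25, adjusted p = 0.0026). DBP was 0.501-fold in SLE-BDL (log2 -0.998, SE 0.22, adjusted p = 0.00069). So 2 of 10 members were called for SLE (19.6% of all genes) and 1 of 10 for MLE (16.8%). All 8 MLE-BDL pigs exceeded the 10 ENT-BDL pigs in BHLHE40, with 34.7 CPM the lowest of the former and 32.4 CPM the highest of the latter, and 2.21% of all genes did not overlap in this comparison. The BHLHE40 difference of MLE-BDL fell to 0.64 with the identifier number as a block, which ended its call (adjusted p = 0.16). CRY1, which was called among sham pigs, was at 0.30 (SE 0.12, adjusted p = 0.076) for SLE-BDL, called without ENT-BDL replicates 2 or 3 or SLE-BDL replicates 1 or 9 (0.33 to 0.35), and at 0.24 (SE 0.13, adjusted p = 0.22) for MLE-BDL, called with the identifier number as a block (0.46, adjusted p = 0.026). NR1D1, which was also called among sham pigs, was at -0.47 (SE 0.26, adjusted p = 0.21) for SLE-BDL and at -0.19 (SE 0.28, adjusted p = 0.71) for MLE-BDL, and DBP at -0.46 (SE 0.24, adjusted p = 0.18) for MLE-BDL. NPAS2 (log2 0.54, SE 0.22, adjusted p = 0.073) was called in SLE-BDL against ENT-BDL without ENT-BDL replicates 1 or 8 or SLE-sham replicate 2 (log2 0.53 to 0.65), without both matching libraries (log2 0.61, adjusted p = 0.045), and with the identifier number as a block (log2 0.62, adjusted p = 0.045). Without both libraries, the calls of BHLHE40 for SLE-BDL (1.45) and MLE-BDL (1.07) and of DBP for SLE-BDL (-0.86) were kept. Without SLE-BDL replicate 9 the BHLHE40 difference of SLE-BDL was 1.02.

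The next question was what bile duct ligation did to the clock genes. Averaged over diets, DBP, PER2, ARNTL, and CRY2 were lower and NPAS2 higher in the 29 BDL pigs than in the 31 sham pigs. These are 5 of 10 members, beside 31.5% of all genes. The median log2 fold change of the 10 members was -0.22, against 0.0026 over all genes tested.

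DBP was 0.609-fold in BDL pigs (log2 -0.72, SE 0.13, adjusted p = 1.7e-05), and the BDL group had the lower median on every diet. PER2, a period protein of the negative limb, ranged from 13.3 to 24.4 CPM in ENT-sham (median 20.8), 10.8 to 30.3 in SLE-sham (median 22.8), and 10.4 to 35.8 in MLE-sham (median 27.7). In BDL pigs it ranged from 9.13 to 19.8 CPM on ENT (median 13.8), 1.83 to 24.3 on SLE (median 16.6), and 7.19 to 27.3 on MLE (median 15.4). The groups overlapped on each diet, and 3 of 29 BDL pigs exceeded the sham median. PER2 was 0.687-fold (log2 -0.54, SE 0.14, adjusted p = 0.0017).

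ARNTL ranged from 16.3 to 47.7 CPM in ENT-sham (median 25.6), 15.8 to 35.7 in SLE-sham (median 26.8), and 22.1 to 41.6 in MLE-sham (median 33.8). After BDL it ranged from 13.9 to 24.8 CPM on ENT (median 21.8), 12.2 to 30.8 on SLE (median 24.8), and 14.2 to 28.1 on MLE (median 23.5). Medians were lower with BDL on all 3 diets, and ARNTL was 0.80-fold (log2 -0.32, SE 0.09, adjusted p = 0.0027). CRY2, the other cryptochrome, was 0.847-fold (log2 -0.24, SE 0.08, adjusted p = 0.022), with group medians of 25.4 to 27.4 CPM in BDL and 28.1 to 32.02 CPM in sham groups. NPAS2, which can replace CLOCK as partner of ARNTL, was 1.29-fold (log2 0.37, SE 0.13, adjusted p = 0.024), with medians of 3.51 to 5.03 CPM in BDL and 3.08 to 4.32 CPM in sham groups.

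These 5 calls were kept without each of the 60 pigs in turn and with the identifier number as a block. NR1D1 (log2 -0.32, SE 0.16, adjusted p = 0.11) was not called, but passed without both matching ENT libraries (log2 -0.39, adjusted p = 0.044) and without ENT-BDL replicate 1 or ENT-sham replicate 7 alone (log2 -0.39 to -0.37). Of the 60 single omissions, PER1 (log2 -0.21, SE 0.11, adjusted p = 0.14) passed in the one without SLE-BDL replicate 9 (log2 -0.27, adjusted p = 0.030). CRY1, BHLHE40, and CLOCK had averaged log2 differences of -0.12, 0.0028, and 0.015.

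Cell type markers were counted in the same contrast, to be read against the 31.5% of all genes called in it. Of 12 hepatocyte markers 8 were lower and 1 was higher with BDL, and their summed level ranged from 100270 to 232070 CPM in sham and from 100720 to 191110 CPM in BDL pigs. Cholangiocyte markers were higher for 8 of 10 (95.5 to 673 CPM in sham and 323 to 651 CPM in BDL), stellate cell and myofibroblast markers for 7 of 10 with 1 lower (1253 to 4163 and 1440 to 8183 CPM), and proliferation markers for 8 of 10 (142 to 371 and 91.8 to 467 CPM). Neutrophil markers were higher for 5 of 8 (29.7 to 76.4 and 30.2 to 103 CPM), and 6 of 10 macrophage markers were lower and 1 was higher (1444 to 3069 and 1356 to 2284 CPM). In sham pigs, the lowest hepatocyte sum (100270 CPM) and macrophage sum (1444 CPM) were those of ENT-sham replicate 2, 1 of the matching libraries. So were the highest cholangiocyte sum (673 CPM) and stellate cell and myofibroblast sum (4163 CPM). Cholangiocyte sums reached 436 CPM in SLE-sham and 288 CPM in MLE-sham pigs. Endothelial markers were lower for 2 of 9 and lymphocyte markers for 1 of 8 tested. Among the response lists, 11 of 13 immediate early genes were higher (88.0 to 337 and 157 to 1005 CPM), as were 5 of 13 hypoxia-response genes (424 to 667 and 383 to 1015 CPM), while 2 of 12 glucocorticoid-responsive genes were higher and 4 lower (3089 to 8004 and 1740 to 6386 CPM) and 2 of 13 feeding and fasting genes were higher and 4 lower (1674 to 6890 and 1695 to 5048 CPM). Their part in the fall of DBP, PER2, ARNTL, and CRY2 was not tested.

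Within single diets the calls were fewer. On ENT, DBP was 0.459-fold (log2 -1.12, SE 0.21, adjusted p = 0.00010), NR1D1 0.511-fold (log2 -0.97, SE 0.25, adjusted p = 0.0043), and CRY1 1.28-fold (log2 0.35, SE 0.12, adjusted p = 0.031) in BDL pigs, which is 3 of 10 members beside 17.4% of all genes. Without both matching libraries the log2 differences were -1.31 for DBP, -1.16 for NR1D1, and 0.39 for CRY1, and BHLHE40 was also called (-0.69, adjusted p = 0.040; -0.63, SE 0.23, adjusted p = 0.052 with them), as it was with the identifier number as a block (-0.70, adjusted p = 0.023). The CRY1 call was lost without any of ENT-sham replicates 1, 6, or 10 or ENT-BDL replicates 2, 3, 4, or 6 (log2 0.29 to 0.33, adjusted p 0.053 to 0.087). BHLHE40 was called on ENT without any of 12 single libraries (log2 -0.69 to -0.63), which were ENT-sham replicates 1, 2, or 6, ENT-BDL replicates 1 or 10, SLE-BDL replicates 3, 6, 8, 9, or 10, MLE-sham replicate 9, and MLE-BDL replicate 3.

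On MLE, PER2 was 0.602-fold (log2 -0.73, SE 0.26, adjusted p = 0.046), ARNTL 0.691-fold (log2 -0.53, SE 0.16, adjusted p = 0.017), and CRY1 0.765-fold (log2 -0.39, SE 0.13, adjusted p = 0.042) with BDL, which is 3 of 10 members beside 14.4% of all genes. The ARNTL call was lost without MLE-BDL replicate 2, its lowest pig at 14.2 CPM (log2 -0.45, adjusted p = 0.050). For CRY1 it was lost without any of MLE-sham replicates 1, 3, 6, 7, 8, or 9 or MLE-BDL replicates 2 to 6 (log2 -0.39 to -0.35, adjusted p 0.050 to 0.090). For PER2 it was lost without any of MLE-sham replicates 3, 5, 6, 7, or 9 or MLE-BDL replicates 1, 2, 3, 6, or 7 (log2 -0.76 to -0.62, adjusted p 0.056 to 0.11). Conversely, DBP (log2 -0.64, SE 0.24, adjusted p = 0.066) was called without MLE-BDL replicate 2, its highest pig at 8.71 CPM, or without ENT-sham replicate 7, SLE-BDL replicate 7, or MLE-sham replicate 7 (log2 -0.79 to -0.65), and with the identifier number as a block (log2 -0.66, adjusted p = 0.048), and NPAS2 (log2 0.62, SE 0.24, adjusted p = 0.078) without MLE-BDL replicate 2 (log2 0.72, adjusted p = 0.040).

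On SLE, 0 of 10 members were called by edgeR, 2 had an unadjusted p under 0.05, and DESeq2 called 1, while 4.54% of all genes were called. The pair with the lowest p were BHLHE40 (log2 0.73, SE 0.24, adjusted p = 0.061) and CRY1 (log2 -0.31, SE 0.12, adjusted p = 0.13). Both passed with the identifier number as a block (log2 0.83, adjusted p = 0.043, and log2 -0.40, adjusted p = 0.040). The BHLHE40 value rested in part on SLE-BDL replicate 9, which at 214 CPM was the highest of all pigs, and was 0.34 without it (adjusted p = 0.38). Without any of SLE-BDL replicates 3, 4, 8, 10, or 11 it passed (log2 0.78 to 0.80). The same pig had the lowest PER2 of the series, at 1.83 CPM, and the highest summed immediate early genes and hypoxia-response genes of its group, at 1005 and 1015 CPM.

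**Figure D3:**
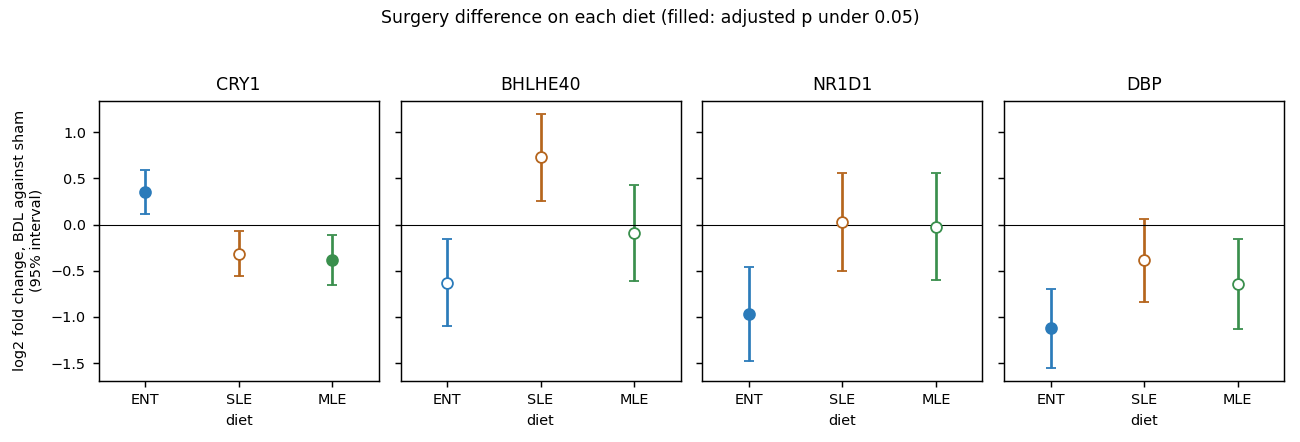
Log2 fold change of BDL against sham with its 95% interval (vertical axis) on ENT, SLE, and MLE (horizontal axis) for CRY1, BHLHE40, NR1D1, and DBP. Filled points passed an adjusted p of 0.05; CRY1 is above 0 on ENT (0.35) and below 0 on SLE (-0.31, not passed) and MLE (-0.39).

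Whether the response to ligation depended on diet was tested with interaction terms. Between SLE and ENT, CRY1 and BHLHE40 passed, which is 2 of 10 members beside 2.33% of all genes. For CRY1 the BDL difference on SLE minus that on ENT was -0.66 (SE 0.17, adjusted p = 0.020), and for BHLHE40 it was 1.36 (SE 0.33, adjusted p = 0.015). Of the 4 single responses behind them, CRY1 on ENT passed and CRY1 on SLE and BHLHE40 on either diet did not, as given above. Both interactions passed without the matching ENT libraries (-0.70 and 1.41) and without each of the 60 pigs, the BHLHE40 difference ranging from 0.97, without SLE-BDL replicate 9, to 1.43. NR1D1 had a difference of 0.997 (SE 0.37, adjusted p = 0.14), which passed without both matching ENT libraries (1.19, adjusted p = 0.046) and with the identifier number as a block (1.38, adjusted p = 0.020).

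Between MLE and ENT, 0 of 10 members passed in edgeR, where 0.0617% of all genes did. In that test 2 members had an unadjusted p under 0.05, CRY1 (-0.74, SE 0.18, adjusted p = 0.077) and NR1D1 (0.95, SE 0.38, adjusted p = 0.43), and DESeq2 called 1. CRY1 passed in DESeq2 (-0.74, adjusted p = 0.028), with the identifier number as a block (-0.77, adjusted p = 0.013), without both matching ENT libraries (-0.78, adjusted p = 0.038), and without ENT-sham replicate 9 or MLE-sham replicate 2 (-0.81 to -0.80). Between MLE and SLE, 0 of 10 passed in edgeR and 0 in DESeq2, beside 0.265% of all genes, and 2 had an unadjusted p under 0.05. Those were BHLHE40 (-0.82, SE 0.35, adjusted p = 0.42) and PER1 (-0.58, SE 0.27, adjusted p = 0.48).

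The lipid emulsions were compared next. DBP was higher with the mixed than with the soy lipid, at 1.58-fold averaged over surgery (log2 0.66, SE 0.16, adjusted p = 0.018), and 14 of 17 MLE pigs exceeded the SLE median. It was the 1 of 10 members called, where 1.93% of all genes were. The call was kept without each of the 60 pigs (adjusted p up to 0.043), but not with the identifier number as a block, in which the log2 difference was 0.44 (adjusted p = 0.45). The remaining 9 members had averaged log2 differences from -0.35 for NPAS2 to 0.31 for NR1D1, and the 95% interval of CRY1, for example, ran from -0.20 to 0.16. The glucocorticoid-responsive, hypoxia-response, and feeding and fasting lists each had 2 genes lower with MLE, and the cholangiocyte and macrophage markers 1 each, and their part in the DBP difference was not tested.

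Within sham pigs, 0 of 10 members were called between MLE and SLE by edgeR, 2 had an unadjusted p under 0.05, and DESeq2 called 1, beside 0.999% of all genes. DBP was at 0.79 (SE 0.23, adjusted p = 0.074), and at 0.79 with an adjusted p of 0.050 without SLE-BDL replicate 7. Within BDL pigs edgeR called 0 of 10 and DESeq2 0, 2 had an unadjusted p under 0.05, and 0.907% of all genes were called. DBP was there at 0.53 (SE 0.23, adjusted p = 0.30) and PER1 at -0.41 (SE 0.19, adjusted p = 0.35).

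Within a group, pigs differed most in NR1D1 and PER2, with a pooled SD of 0.62 log2 CPM each, and least in CRY1 (0.29) and CLOCK (0.30), against a median of 0.31 over all genes tested. The SD was uneven between groups. For PER2 it ran from 0.31 in ENT-sham to 1.01 in SLE-BDL, and for NR1D1 from 0.33 in SLE-BDL to 0.91 in ENT-sham. Ordered by mean log2 CPM, 4 of 50 neighbouring pairs of groups over the 10 members differed by more than the larger SD of the pair. These steps were from ENT-sham to MLE-sham for DBP, from ENT-BDL to ENT-sham for CRY1, from ENT-sham to ENT-BDL for BHLHE40, and from MLE-sham to SLE-sham for ARNTL.

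The spread was also compared with the number in the pig identifier. With group in the model, 3 of 10 members differed by number, a share no higher than the 33.6% of all genes that did. They were ARNTL (adjusted p = 0.00016), PER2 (adjusted p = 0.0027), and NR1D1 (adjusted p = 0.040), and 2 remained without both matching ENT libraries. One number was carried by 7 pigs from 5 groups, and all 7 lay below their group mean in ARNTL (mean -0.52 log2 CPM) and in PER2 (mean -1.04). In 4 of these 5 groups 1 of them had the lowest PER2, at 1.83 CPM in SLE-BDL, 10.8 in SLE-sham, 7.19 in MLE-BDL, and 10.4 in MLE-sham. In turn, all 13 pigs of the number with most pigs were above their group mean in ARNTL (mean 0.22).

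**Figure D4:**
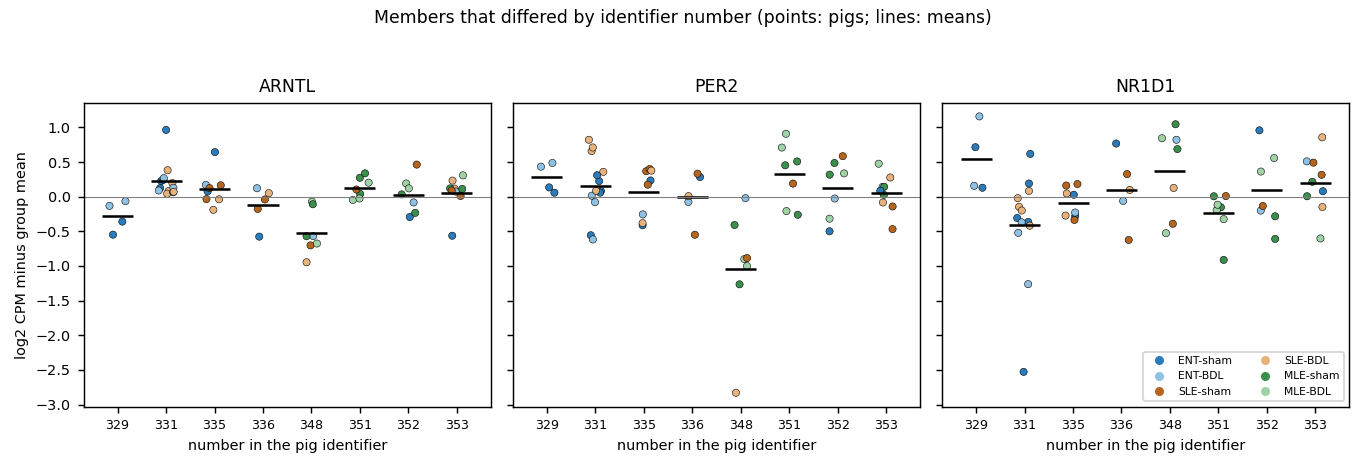
Log2 CPM minus the group mean (vertical axis) of ARNTL, PER2, and NR1D1 by the number in the pig identifier (horizontal axis). Points are pigs coloured by group and lines are means; the 7 pigs of one number lie below 0 in both ARNTL and PER2, where their mean is -1.04.

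Whether the members varied together from pig to pig was tested after group means were subtracted, over 60 pigs and 45 pairs with 100000 permutations within groups. In 8 pairs both Pearson's r and Spearman's rho passed a Benjamini-Hochberg adjusted p of 0.05. The strongest was ARNTL with CRY1 (r = 0.65, rho = 0.62, permutation p = 1e-05 for both, the smallest the permutations can give, adjusted p = 0.00045), and r was 0.62 without the 2 pigs farthest from the ARNTL median. It was positive in all 6 groups, from 0.57 to 0.82.

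NR1D1 and DBP also rose and fell together (r = 0.53, permutation p = 2e-05, adjusted p = 0.00045; rho = 0.39, permutation p = 0.0026, adjusted p = 0.019), with r = 0.37 without the 2 farthest pigs. The relation was seen in ENT-sham (r = 0.89) and ENT-BDL (r = 0.93), while r was 0.06 in sham and -0.38 in BDL pigs on SLE and 0.44 and 0.43 in those on MLE, differences that were not tested. CLOCK was related to CRY1 (r = 0.48, permutation p = 0.00054, adjusted p = 0.0041; rho = 0.39, permutation p = 0.0029, adjusted p = 0.019; r = 0.38 without the 2 farthest pigs), with a positive r in 4 of 6 groups and -0.16 in SLE-sham and -0.09 in MLE-BDL.

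The other 5 pairs were inverse. ARNTL ran against NR1D1 (r = -0.55, permutation p = 4e-05, adjusted p = 0.0006; rho = -0.43, permutation p = 0.0012, adjusted p = 0.013; r = -0.47 without the 2 farthest) and against DBP (r = -0.41, permutation p = 0.0030, adjusted p = 0.014; rho = -0.38, permutation p = 0.0042, adjusted p = 0.024; r = -0.39). By group, ARNTL with NR1D1 had r = -0.80 in ENT-sham and -0.71 in ENT-BDL 0.18 in SLE-sham and -0.09 in SLE-BDL, and -0.62 in MLE-sham and -0.54 in MLE-BDL. In the same order of groups ARNTL with DBP had r = -0.82, -0.68, -0.16, 0.19, -0.12, and -0.95, and differences between groups were not tested. CLOCK ran against DBP (r = -0.50, permutation p = 0.00043, adjusted p = 0.0039; rho = -0.48, permutation p = 0.00034, adjusted p = 0.0077; r = -0.45). CRY1 ran against DBP (r = -0.45, permutation p = 0.0017, adjusted p = 0.0098; rho = -0.47, permutation p = 0.00061, adjusted p = 0.0092; r = -0.50) and NR1D1 (r = -0.41, permutation p = 0.0015, adjusted p = 0.0097; rho = -0.41, permutation p = 0.0017, adjusted p = 0.015; r = -0.38). With the identifier number also subtracted, 4 of the 8 pairs passed on both measures, namely ARNTL with CRY1 (r = 0.55), CLOCK with CRY1 (r = 0.49), CLOCK with DBP (r = -0.54), and NR1D1 with DBP (r = 0.54), and PER1 with BHLHE40 (r = 0.51) passed as well.

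**Figure D5:**
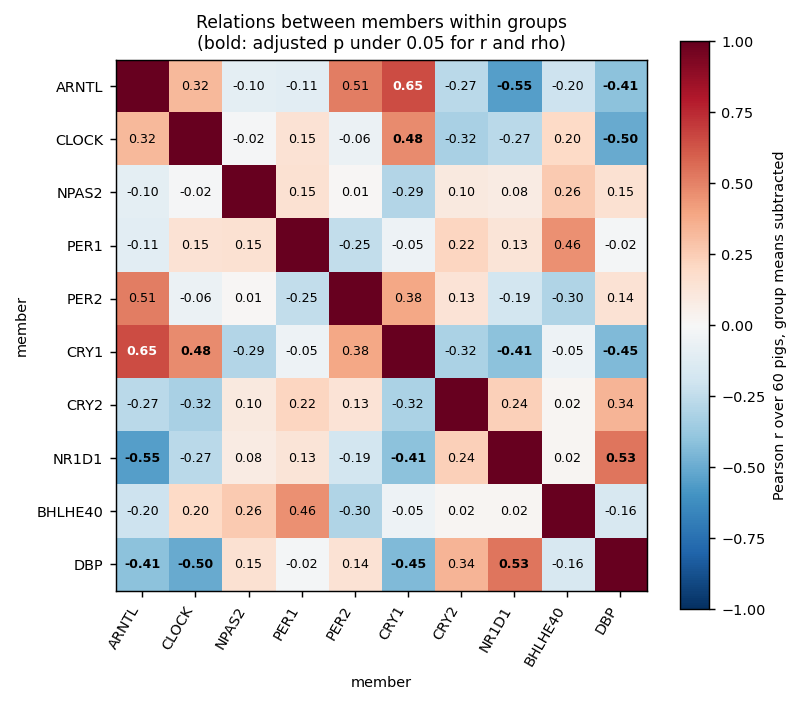
Pearson r between members (both axes) over 60 pigs with group means subtracted, coloured from -1 to 1. Bold values passed an adjusted p of 0.05 for r and rho, as for ARNTL with CRY1 (0.65) and for NR1D1 with DBP (0.53).

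Over the same 60 pigs, the genes most like each member by Pearson r were looked up among all genes tested with a symbol. NR1D1 was most like its paralog NR1D2 (r = 0.69) and PER3 (r = 0.60), and PER3 was also the third closest gene to DBP (r = 0.63), after TSPAN4 (r = 0.70) and EHMT2 (r = 0.64). ARNTL and PER2 shared SLC30A10, a manganese exporter, as the closest gene (r = 0.76 and 0.72), and it was the third for CRY1 (r = 0.63). BHLHE40 was closest to MYC, TRIB1, and MAFF (r = 0.68 to 0.71), and PER1 to SALL1, ERN1, and FOXO1 (r = 0.67 to 0.68). CLOCK was closest to CEP350, PHC3, and SECISBP2L (r = 0.71 to 0.73), NPAS2 to COL5A1, LRRC32, and NAV1 (r = 0.61 to 0.64), and CRY2 to RNF4, FUT1, and MAP3K14 (r = 0.55). These values are a description of pigs that share a library preparation, with no test.

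Other genes of the clock loop were followed from a list of 12, of which 11 were tested. On PN, 6 of 11 were lower and 1 was higher, beside 41.6% of all genes called, with a median log2 fold change of -0.41 against -0.0044 over all genes. NR1D2 (REV-ERBβ) was lower by a log2 value of -0.93 (SE 0.11), as were HLF, a relative of DBP (-0.84, SE 0.09), RORA (-0.50, SE 0.12), a nuclear receptor that activates ARNTL, PER3 (-0.52, SE 0.07), and BHLHE41, the paralog of BHLHE40 (-0.41, SE 0.15, adjusted p = 0.022). NFIL3, a repressor that opposes DBP at shared elements, was higher (0.28, SE 0.10, adjusted p = 0.019). In ENT-sham pigs NR1D2 ranged from 25.5 to 76.2 CPM (median 57.4), against medians of 19.8 CPM in SLE-sham and 23.2 CPM in MLE-sham. TEF (-0.04), CIPC (-0.10), CIART (-0.09), and ARNTL2 (0.14) did not pass.

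With BDL, 5 of the 11 were lower and 1 was higher, beside 31.5% of all genes called. HLF fell most (log2 -0.93, SE 0.08, adjusted p = 1.3e-12), from sham medians of 78.8 CPM on ENT, 33.5 on SLE, and 50.7 on MLE to BDL medians of 39.7, 23.2, and 22.9 CPM. TEF, the remaining relative of DBP, was at -0.56 (SE 0.09), RORA at -0.43 (SE 0.12), and PER3 at -0.38 (SE 0.07). So each of the PAR bZIP genes DBP, HLF, and TEF was lower with BDL. ARNTL2 was higher (1.68, SE 0.28, adjusted p = 4.1e-06), from a low level of 0 to 1.69 CPM in sham and 0.257 to 3.70 CPM in BDL pigs. Between MLE and SLE averaged over surgery, values near the threshold were those of TEF (0.39, adjusted p = 0.056) and PER3 (0.28, adjusted p = 0.091), and among sham pigs HLF was higher with MLE (0.56, adjusted p = 0.043).

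Among 19 tested genes for clock kinases and turnover, 7 were lower and 2 higher on PN, a share near the 41.6% of all genes called. The AMP-activated kinase subunits PRKAG2 and PRKAB1 were at -0.40 (SE 0.05) and -0.27 (SE 0.05), USP2 at 0.59 (SE 0.16), and the PER kinase CSNK1D at 0.13 (SE 0.03). With BDL, PRKAB1 (-0.30), PRKAA1 (-0.25), and PRKAG2 (-0.21) were lower, and 3 of 19 is under the 31.5% of all genes called. In the lipid comparison FBXL21 (0.73, SE 0.18, adjusted p = 0.016) and PRKAB2 (0.23, SE 0.06, adjusted p = 0.016) were higher with MLE.

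Of 18 tested genes known as clock-controlled in liver, 8 were higher and 8 lower on PN, beside 41.6% of all genes called. Among the rises were CDKN1A (1.60, SE 0.12), NOCT (1.07, SE 0.39, adjusted p = 0.022), ALAS1 (0.92, SE 0.15), and KLF10 (0.69, SE 0.10). The 5 largest falls were glycogen synthase GYS2 (-1.76, SE 0.12), UPP2 (-1.75, SE 0.14), INSIG2 (-0.86, SE 0.09), KLF9 (-0.80, SE 0.11), and ID2 (-0.61, SE 0.09). With BDL 4 were higher and 5 lower, beside 31.5% of all genes, among them NOCT (1.09, SE 0.36), GYS2 (-0.39, SE 0.12), and PPARA (-0.33, SE 0.07). The median over these 18 genes was near 0 in both comparisons (-0.09 and -0.02).

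A stricter call, at an adjusted p under 0.05 in edgeR and a fold change above 2, left few members. DBP was the 1 of 10 for PN against ENT (3.42% of all genes) and for BDL against sham on ENT (3.39%). Among sham pigs it was met by DBP and NR1D1 for SLE against ENT (5.24%) and by NR1D1 for MLE against ENT (3.71%). Among BDL pigs BHLHE40 met it for SLE (3.13%) and for MLE against ENT (3.18%), and it also met it in the interaction of SLE and ENT (1.06%). For BDL against sham averaged over diets (2.86%), BDL against sham on MLE (3.78%), and MLE against SLE averaged over surgery (0.419%), the members called above were all within 2-fold.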

How the data were processed

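Per the submitters' processing notes and the study's methods, polyadenylated RNA was made into libraries without a stated strand setting and sequenced as read pairs, and the authors aligned reads to Sscrofa11.1 with HISAT2 2.0.5 and counted them per gene with featureCounts 1.5.0-p3. The deposited values are raw counts, 1 column per pig. Each column was tied to its pig by the sample labels, and 0 columns were left unused.

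Features without a gene name (24, 0.0084% to 0.041% of counts) were left out. Genes kept by filterByExpr (16210) were scaled by TMM and fitted with group as the only term by edgeR 4.0.16 in R 4.3.3 (robust quasi-likelihood, two-sided, Benjamini-Hochberg). Log2 CPM used a prior count of 2. The scripts were tested on simulated counts. The alternatives were DESeq2 1.42.0, RLE size factors, other low-count filters, a fold threshold of 2, fits on only the groups compared, blocks for replicate or identifier number, and omission of single pigs or of both matching libraries. Pairs of members used permutations in numpy 2.4.6 and scipy 1.17.1.

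The 10 members, the gene lists, and the rule for naming other genes (up to 5 of the largest called changes each way in a list, at a mean log2 CPM of at least 0, every tested gene of the clock loop, and the 3 genes most like each member) were chosen with earlier results of these data known. SLE-sham replicates 9 and 10 share a pig identifier, but differed by a chi-square of 31.69 per degree of freedom and were both kept. Nothing in the labels ties pigs to litters, and p-values measure the spread between these pigs. Without strand, reads of overlapping genes cannot be told apart. TIMELESS and CSNK1E were not analysed here. Some genes of the lists enter the counts but are not reported here by name.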

Additional observations from a re-analysis of the deposited data

Results flagged for a closer look

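Single far pigs were sought by Dixon's criterion in groups of up to 10 pigs, so ENT-sham (12 pigs) and SLE-BDL (11 pigs) were not tested. In 5 of the 40 groups of 8 to 10 pigs tested over the members, 1 pig stood far from the others by this criterion, which chance meets in about 1 in 20 groups. They were ARNTL in ENT-BDL replicate 8 (13.86 CPM, the lowest), ARNTL in MLE-BDL replicate 2 (14.16 CPM, the lowest), NPAS2 in SLE-sham replicate 2 (0.8698 CPM, the lowest), PER1 in ENT-BDL replicate 4 (28.88 CPM, the lowest), and DBP in MLE-BDL replicate 2 (8.713 CPM, the highest). Both pigs with low ARNTL carry the same identifier number.

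The response to BDL differed between SLE and ENT, by the interaction test, for CRY1 (log2 -0.6647) and BHLHE40 (log2 1.356).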

How the results depend on the processing

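No member reversed its direction under any alternative where it was called. Over the 60 omissions of 1 pig, the members called of 10 ranged from 4 to 6 for PN against ENT, 5 to 6 for BDL against sham, and 1 to 1 for MLE against SLE. For BDL against sham the range was 2 to 4 on ENT, 0 to 1 on SLE, and 1 to 4 on MLE. Among sham pigs it was 3 to 4 for SLE against ENT, 3 to 5 for MLE against ENT (5 without SLE-BDL replicate 9), and 0 to 1 for MLE against SLE (1 without SLE-BDL replicate 7). Among BDL pigs it was 2 to 3 for SLE against ENT, 1 to 1 for MLE against ENT, and 0 to 0 for MLE against SLE. For the interactions it was 2 to 2 for SLE and ENT, 0 to 1 for MLE and ENT, and 0 to 0 for MLE and SLE.

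A fold change above 2 as a further condition left 1 member for PN against ENT, 0 for BDL against sham, 0 for MLE against SLE, 1 and 0 for BDL on ENT and MLE, 1 for MLE against ENT in sham pigs, 1 for SLE against ENT in BDL pigs, and 1 for the interaction of SLE and ENT, since the condition itself removes smaller changes. DESeq2 on all pigs called 1 member for BDL on SLE, 1 for MLE against SLE in sham pigs, and 1 for the interaction of MLE and ENT. On only the groups compared, DESeq2 called 5 for BDL on ENT, 6 for BDL on MLE, 1 for MLE against SLE in sham pigs, and 1 for the interaction of MLE and ENT, and edgeR called 5, 1, and 1 for the last 3 of these. With the identifier number as a block there were 0 for MLE against SLE, 2 for BDL on SLE, 5 for MLE against ENT in sham pigs, and 1 for the interaction of MLE and ENT. Leaving out both matching ENT libraries gave 1 for that interaction. With no low-count filter, 4 members were called for PN against ENT and 2 for BDL on MLE. Pairs of members related on both measures numbered 5 with the identifier number subtracted. The cause of these shifts was not tested.

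Replicate numbers did not pair the pigs, since same-numbered pigs of compared groups correlated at -0.2311 to 0.381 (median -0.01117), with 20 of 82 pairs over 0.1. With a replicate block the interaction of SLE and ENT kept 1 member, as BHLHE40 had 1.16 (adjusted p = 0.062), and for BDL on MLE PER2 (-0.78, adjusted p = 0.057) was not called and DBP (-0.66, adjusted p = 0.048) was. Members at low counts, NR1D1, NPAS2, DBP, and PER2, carry the most counting error.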
